A study of Mus musculus with 8 samples.

Results

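Among the 32502 genes with a count in any table of this single-cell study, 9 were examined here, namely Rhox5, Dppa2, Etv2, Lect1, Csn3, Prph, Morc4, Car6 and Gm14139. They were picked for their high level in tumour cells relative to brain on these same data, so their level in tumour cells against other cells is given as a description, without a test. The comparisons of hosts, of tumour stages and of cycling with non-cycling tumour cells were not used in that choice and were tested. All 9 genes were measured in each of the 6 tumour-bearing libraries.

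GL261 is a mouse glioma cell line that grows in the brain of immunocompetent mice of its own strain. The 6 tumour-bearing libraries came from C57BL/6N brains into which 500 GL261 cells had been implanted, 1 mouse and library from a wild type (WT) host and 1 from an Acod1-deficient (KO) host at each of 3 stages set by tumour volume on imaging, early (5 to 10 mm3), intermediate (20 to 25 mm3) and late (30 to 35 mm3). The 2 naïve libraries, WT and KO, came from brains without tumour, and the label of each names 2 mice. Acod1, also called Irg1, encodes the enzyme that makes itaconate, and the KO hosts carried an insertion in it in all their cells, whereas the implanted GL261 cells were the same in WT and KO hosts. Host sex was matched only in the late pair and was reversed between the early and intermediate pairs, so that sex and genotype cannot be told apart within a pair before the late stage.

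Several of the 9 genes belong to programmes that adult brain keeps silent. Rhox5 (also known as Pem) is an X-linked homeobox gene of the reproductive tract and placenta, Dppa2 is a chromatin factor of pluripotent cells and early embryos, and Etv2 is the ETS transcription factor that starts the blood vessel and blood lineages. Lect1 (now named Cnmd) encodes chondromodulin, an anti-angiogenic protein of cartilage, and Csn3 encodes kappa-casein of milk. Prph encodes peripherin, an intermediate filament of peripheral neurons. Morc4 belongs to the MORC ATPases, which act on chromatin, and Car6 encodes the secreted carbonic anhydrase of saliva. Gm14139 is a predicted protein-coding gene without a described role given here.

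In the GENCODE M21 annotation of GRCm38 the genes lie on 8 chromosomes, and only Rhox5 (chrX:37804842-37808876, plus strand) and Morc4 (chrX:139821632-139871677, minus strand) share one. Dppa2 lies at chr16:48303908-48319723, Etv2 at chr7:30633616-30635852, Lect1 at chr14:79637690-79662170, Csn3 at chr5:87925579-87932665, Prph at chr15:99055174-99058978, Car6 at chr4:150187015-150201332 and Gm14139 at chr2:150181755-150193279. All are annotated as protein coding. Csn3 overlaps an antisense gene, 1700066N21Rik, and whether the counting used strand is not given in the sources used here.

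The promoter windows of 4 members are shown, those of the abundant members that differed most between tumour libraries or cell cycle states and had a window at the annotated gene. Csn3, which also differed, had none. Each is the RefSeq window of 300 bases around the annotated start on GRCm38.p6, read on the strand of the gene, with CpG dinucleotides in capitals. They are Lect1 (chr14:79662134-79662433), Prph (chr15:99054924-99055223), Morc4 (chrX:139871605-139871904) and Car6 (chr4:150201086-150201385).
Lect1: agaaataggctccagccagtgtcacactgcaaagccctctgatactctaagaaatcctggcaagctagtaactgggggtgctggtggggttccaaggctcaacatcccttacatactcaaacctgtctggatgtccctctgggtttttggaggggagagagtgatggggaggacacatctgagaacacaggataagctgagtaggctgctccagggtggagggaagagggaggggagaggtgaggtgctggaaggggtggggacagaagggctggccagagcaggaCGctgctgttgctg
Prph: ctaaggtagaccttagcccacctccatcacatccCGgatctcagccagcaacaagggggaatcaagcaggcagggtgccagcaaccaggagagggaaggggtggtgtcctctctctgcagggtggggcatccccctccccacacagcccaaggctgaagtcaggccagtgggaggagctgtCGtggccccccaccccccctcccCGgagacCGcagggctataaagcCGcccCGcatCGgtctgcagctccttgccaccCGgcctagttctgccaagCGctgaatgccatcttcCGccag
Morc4: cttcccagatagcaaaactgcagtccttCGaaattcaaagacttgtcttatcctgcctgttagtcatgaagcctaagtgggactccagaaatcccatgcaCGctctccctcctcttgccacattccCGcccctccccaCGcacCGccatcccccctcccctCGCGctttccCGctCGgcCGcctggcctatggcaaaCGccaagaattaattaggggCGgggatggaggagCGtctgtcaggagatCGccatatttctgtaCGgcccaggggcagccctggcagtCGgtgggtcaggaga
Car6: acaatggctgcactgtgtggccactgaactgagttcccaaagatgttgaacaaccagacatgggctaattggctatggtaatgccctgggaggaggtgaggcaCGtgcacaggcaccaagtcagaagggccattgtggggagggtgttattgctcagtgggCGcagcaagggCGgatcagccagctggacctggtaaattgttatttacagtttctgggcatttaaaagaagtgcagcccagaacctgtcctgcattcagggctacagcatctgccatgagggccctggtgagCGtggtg

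The Lect1 window held 1 CpG, the Car6 window 4, the Prph window 10 and the Morc4 window 16. RefSeq gave a window for 7 of the 9 members, Dppa2 and Csn3 being without one. The ratio of observed to expected CpG was 0.05 for Lect1, 0.19 for Car6, 0.25 for Gm14139, 0.27 for Etv2, 0.32 for Prph, 0.36 for Rhox5 and 0.64 for Morc4. Over all 32851 mouse windows of the same length the median ratio was 0.38, and 35.8% reached 0.6, as 1 of the 7 members did, namely Morc4. Searched on both strands, the TATA box (TATAAA) was in 1 of the 7 windows, Prph, and in 13.6% of all windows. The CCAAT box (CCAAT) was in 4 and in 37.4% of all windows, the GC box (GGGCGG) in 3 and in 35.7%, and the E-box (CACGTG) in 1, Car6, and in 7.15%. For Rhox5 the RefSeq start lies 50234 bases from the GENCODE start, so its window does not border the annotated gene above. UMI counts from transcript 3′ ends do not show which start the tumour cells used.

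From 3000 barcodes in each table, the 1000 with the most UMIs per library and at least 1000 genes gave 5698 cells, of which 3390 were classed as tumour cells. The tumour class was found only in the tumour-bearing libraries, with 281 to 926 cells each, and all 6 of its markers (Cd44, Vim, Sox2, Col9a1, Col3a1, Col11a1) were higher in it than in the other cells of those libraries. The 13 other classes were named from their markers, so that astrocytes stand here for astrocyte-like cells, and so on. The median UMI count per tumour cell was 3569 to 5857.5. Barcodes shared by libraries numbered 22 over 28 library pairs, at most 2 in a pair. Acod1 itself was counted over macrophages and microglia. At the early stage it was lower in KO, with 57.7 CPM (27 UMIs) against 160 CPM (136 UMIs) in WT. It was also lower in KO at the intermediate stage, but on few UMIs, with 11.6 CPM (6 UMIs) against 48.9 CPM (5 UMIs, 21 cells) in WT. At the late stage it was higher in KO, with 61.1 CPM (33 UMIs) against 20.4 CPM (4 UMIs) in WT. It had 0 UMIs in both naïve libraries. UMIs mark the 3′ end, and whether the insertion removes that part of the transcript was not tested. The paper reports Acod1 as undetectable by qPCR in macrophages grown from KO bone marrow, whereas the KO tumour-bearing libraries held UMIs of it. These counts therefore do not settle the genotype by themselves. The paper states that the genotype of the mice was checked by PCR, and the late pair stands by its labels and that check. Each library is 1 sample of its condition, so intervals on single values cover counting error only.

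**Figure D1:**
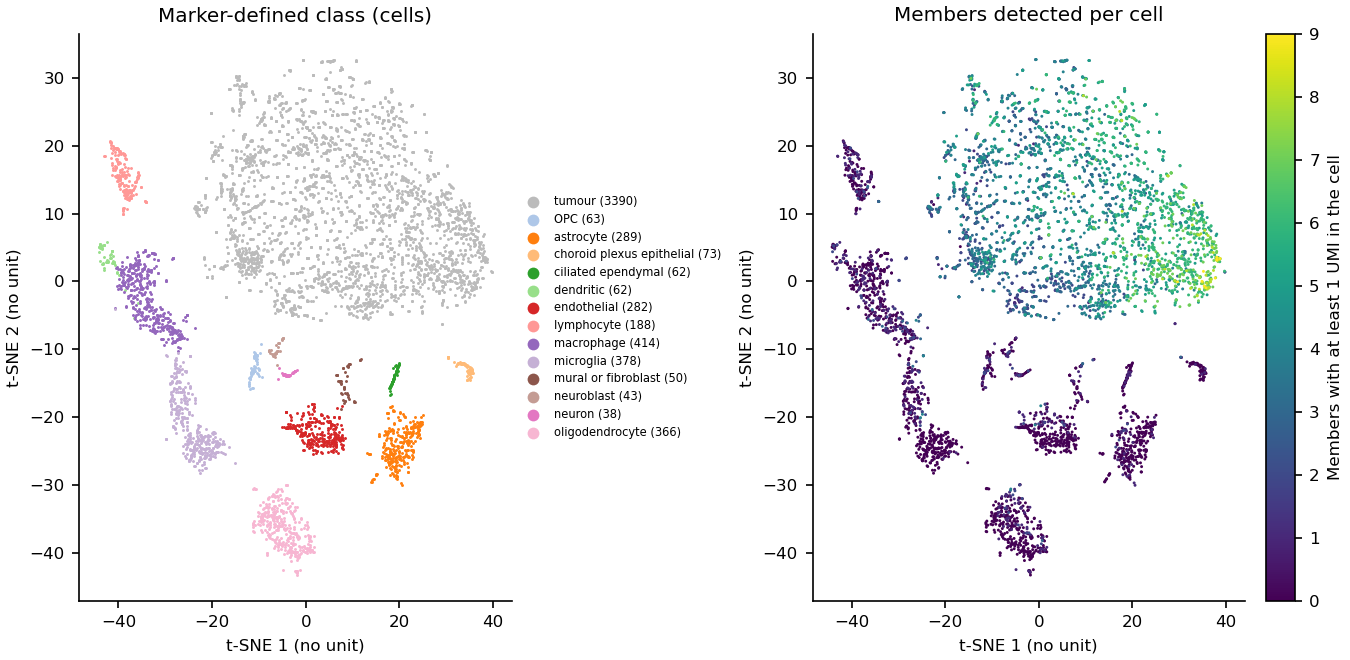
Map of the 5698 cells by t-SNE (axes without unit), coloured by marker-defined class in the left panel, with cell numbers, and by the number of the 9 members with at least 1 UMI in the right panel. The median tumour cell held 4 members and the median cell of any other group 0.

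Rhox5, Lect1, Csn3, Prph, Morc4 and Car6 each exceeded 50 CPM (UMIs of the gene per 1000000 UMIs of the summed cells) in the pooled tumour cells, whereas Dppa2, Etv2 and Gm14139 stayed near 10. For 2895 of 3390 tumour cells (85.4%) at least 3 of the 9 members were detected, against 26 of 1400 other cells of tumour-bearing brains (1.86%) and 0 of 908 naïve cells. No member was detected in 9 tumour cells, whose median depth was 1595 UMIs against 4885 over all tumour cells. Cells with at least 2000 UMIs were also thinned to 2000 UMIs, and shallower cells were left out of every thinned value. This kept 2928 of the 3390 tumour cells, and left out 0 in WT intermediate but 122 in KO early. The median thinned tumour cell held 3 members in each library.

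**Figure D2:**
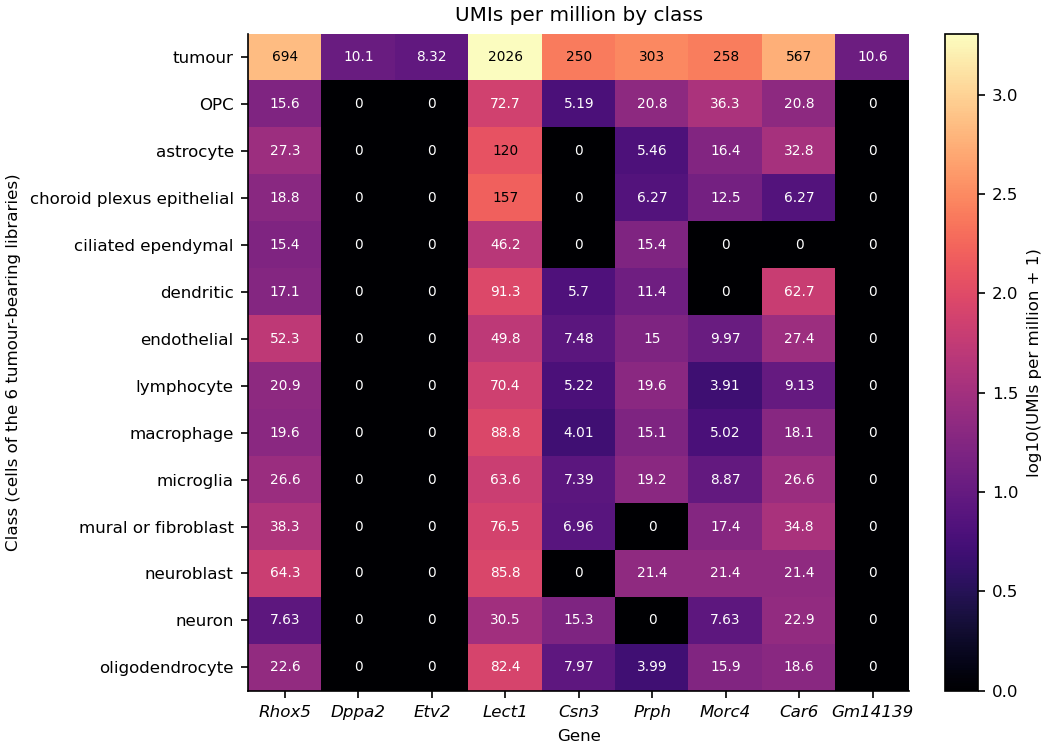
Level of the 9 members in CPM by class, over the cells of the 6 tumour-bearing libraries, with colour on a log10 scale. The tumour row runs from 8.32 for Etv2 to 2026 for Lect1, and the columns of Dppa2, Etv2 and Gm14139 are 0 in every other class.

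Rhox5 was the steadiest of the members. Its level in tumour cells was 579 CPM in WT early, 761 in KO early, 687 in WT intermediate, 686 in KO intermediate, 711 in WT late and 714 in KO late. Only the early pair differed by more than counting error, with a KO over WT ratio of 1.31. The coefficient of variation over the 6 libraries was 8.77%, and 10.1% of the 4161 genes at 50 CPM or more in tumour cells varied less. UMIs were found in 82.5% to 91.3% of tumour cells (86.9% over all, median 4885 UMIs) and in 7.86% of the other cells of the same brains (median 2878 UMIs), and the share in tumour cells was 66.5% to 72.8% after thinning to 2000 UMIs. In the 908 naïve cells Rhox5 had 0 UMIs of 3169773, which allows a level of up to 0.946 CPM.

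Lect1 was detected in most tumour cells of every library, in 91.9% of them in KO late and in 98.9% in WT intermediate. Its level was 1671 CPM in WT early, 2000 in KO early, 2345 in WT intermediate, 2299 in KO intermediate, 1868 in WT late and 1581 in KO late. The 2 intermediate libraries were the highest and the WT and KO values overlapped. In naïve brain it had 17 UMIs, 12 of them in astrocytes (18.9 CPM, 95% Poisson interval 9.74 to 32.9) and 5 in ciliated ependymal cells (15.9 CPM, 5.18 to 37.2). The tumour cell level was thus 25.4-fold that of the other cells of the same brains, which itself was 79.9 CPM.

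Csn3 was found in 35.5% to 47.3% of tumour cells and in 2.14% of the other cells. The levels were 230 CPM in WT early, 450 in KO early, 182 in WT intermediate, 404 in KO intermediate, 143 in WT late and 190 in KO late. The KO library was higher than the WT library of its stage each time, while KO late lay below WT early. After thinning, the order of the shares went the other way in the late pair (23.4% of WT and 20.9% of KO tumour cells), so no order is read from them there. A small part of the cells carried most of it, since the 10% of thinned tumour cells with the most Csn3 held 56.6% to 73.2% of its UMIs, against 28.4% to 32.4% for Rhox5, and 1 cell had 252 UMIs. Such shares rise also as a gene becomes sparser. The Fano factor of the thinned counts (variance over mean, 1 for pure counting error) was 1.79 to 4.18 for Csn3, 2.88 to 4.84 for Lect1, 2.44 to 3.48 for Car6 and 1.10 to 1.31 for Rhox5.

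Prph, the neuronal filament gene, was at 400 CPM in WT early, 466 in KO early, 192 in WT intermediate, 434 in KO intermediate, 148 in WT late and 376 in KO late. WT early stood with the 3 KO libraries (376 to 466), and the 2 later WT libraries lay below all 4. In cells thinned to 2000 UMIs, the share of tumour cells with a UMI was 47.5% in WT early and 52.2% in KO early, 28.3% and 49.4% at the intermediate stage, and 24.9% and 46.5% at the late stage. Hence the order of the shares was that of the levels at each stage.

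Morc4 showed the widest range of the 6 abundant members. It was at 190 CPM in WT early, 143 in KO early, 293 in WT intermediate, 181 in KO intermediate, 477 in WT late and 110 in KO late. The 3 WT libraries lay above the 3 KO libraries without overlap, by 190 against 181 at the closest, where the counting intervals (175 to 206 and 169 to 194) did overlap. Its coefficient of variation was 58.1%, and 98.6% of genes at 50 CPM or more varied less. At equal depth, Morc4 was found in 56.4% of WT late tumour cells (95% binomial interval 51.8 to 60.9) and in 18.0% of KO late ones (14.4 to 22.1). In naïve brain it had 17 UMIs over 8 classes.

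Car6 was lowest in WT early and highest in WT late. Its values were 263 CPM in WT early, 709 in KO early, 473 in WT intermediate, 417 in KO intermediate, 919 in WT late and 508 in KO late. The KO library was the higher one of the early pair, by 2.70-fold, and the lower one of the late pair, at 0.553 of the WT level. Thinned shares of positive cells moved the same way, from 22.1% in WT early to 66.8% in WT late.

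Dppa2, Etv2 and Gm14139 were low and, among the kept cells of tumour-bearing brains, were detected in the tumour class only. Dppa2 had 296 UMIs in 248 tumour cells, Etv2 243 in 187 and Gm14139 309 in 262, and each had 0 UMIs in the 1400 other cells of the 6 libraries. Against the limit of 3 UMIs that a count of 0 allows over those cells, the tumour level was at least 19.7-fold higher for Dppa2, at least 16.2-fold for Etv2 and at least 20.6-fold for Gm14139. The 6 abundant members were at 2.20% to 4.36% of their tumour level in those cells, a share within these limits. The counts of 0 therefore do not set these low genes apart from them. The naïve libraries held 1 UMI of Gm14139, in an oligodendrocyte, and none of the other two. Between libraries Dppa2 ranged from 6.89 CPM (WT intermediate) to 14.1 (KO late), Etv2 from 3.97 (KO intermediate) to 13.3 (KO late) and Gm14139 from 7.65 (WT intermediate) to 17.0 (WT early). Within pairs of a stage, the counting interval of the KO over WT ratio excluded equality only in the early pair, for Etv2 (2.53-fold) and Gm14139 (0.630). After thinning, the share of tumour cells with a UMI was at most 2.08% for Dppa2, 2.05% for Etv2 and 4.58% for Gm14139 in any library.

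**Figure D3:**
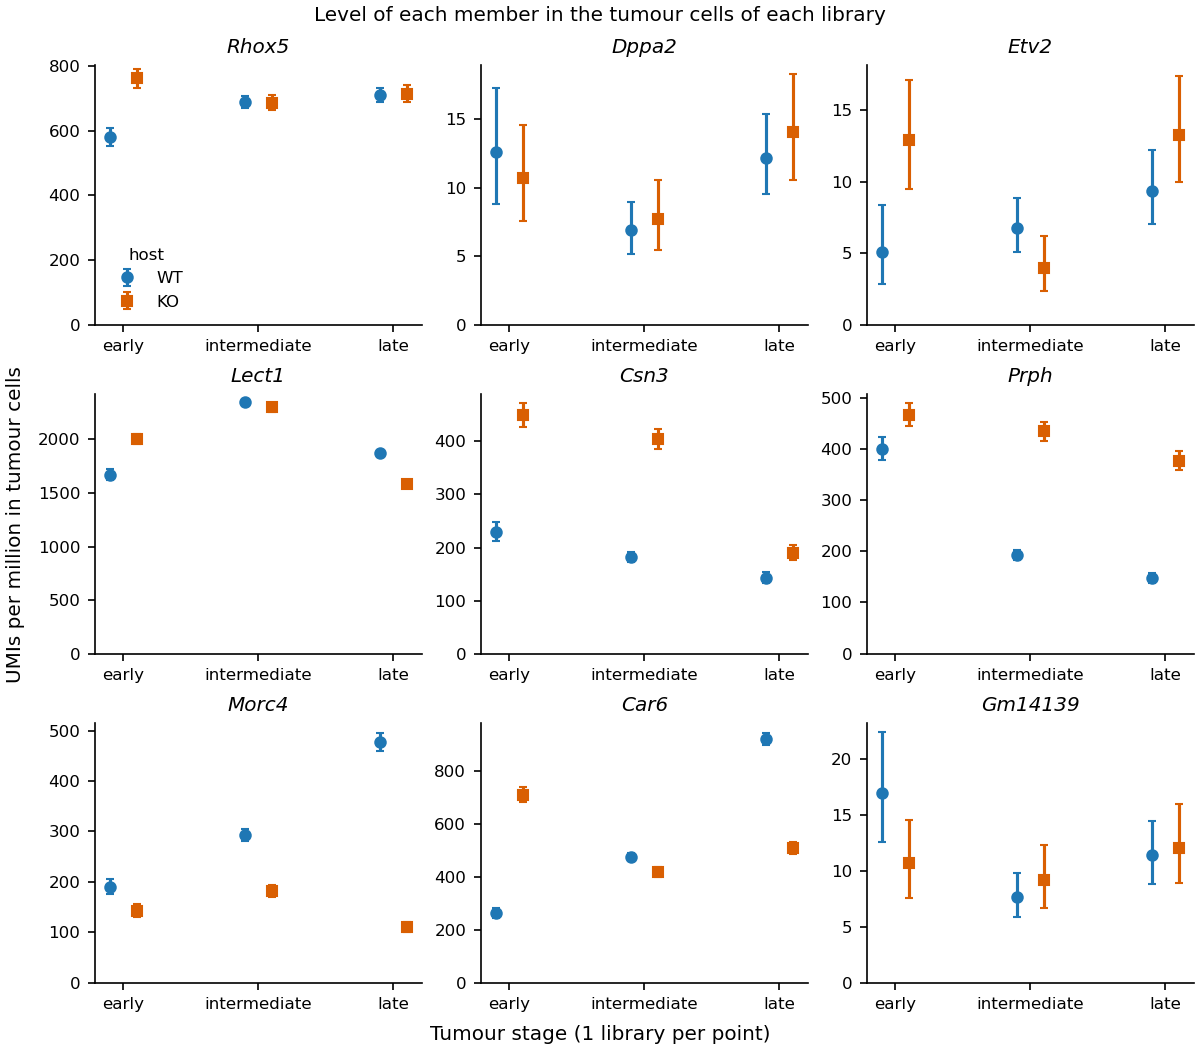
Level of each member in the tumour cells of each library (CPM, linear axis from 0) by stage, for WT hosts (circles) and KO hosts (squares), with exact Poisson 95% intervals. Prph and Csn3 lie higher in the KO library at each stage, Morc4 lies lower, and Rhox5 stays between 579 and 761.

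The other cells of tumour-bearing brains carried the 6 abundant members at a low level. Pooled over libraries, this level was 2.20% of the tumour cell level for Csn3, 3.49% for Rhox5, 3.59% for Morc4, 3.69% for Car6, 3.94% for Lect1 and 4.36% for Prph. By library it was 1.79% in KO intermediate, 2.00% in WT early, 4.43% in WT late, 5.79% in WT intermediate, 5.82% in KO early and 7.71% in KO late for the 6 genes together. Rhox5 was present in all 13 other classes, from 7.63 CPM in neurons to 64.3 in neuroblasts, the latter a class of few cells. Of the 26 other cells with at least 3 members, 9 were macrophages, and their median depth was 5197 UMIs against 2878 for other cells. Barcodes beyond the 1000 deepest carried the 6 genes at 20.0% to 36.1% of the tumour level in WT early and at 42.3% to 111% in the remaining libraries. Free RNA and cells of low depth in these barcodes cannot be told apart.

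**Figure D4:**
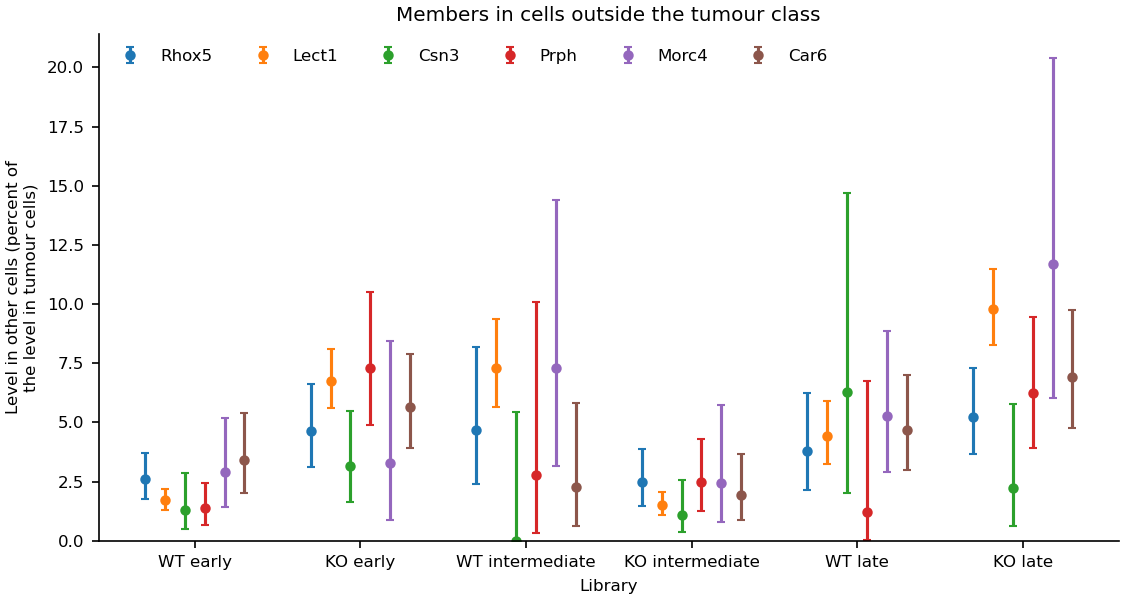
Level of the 6 abundant members in cells outside the tumour class, as a percent of the tumour cell level of the same library, with Poisson 95% intervals from the UMIs in other cells. Most points lie under 7.5%, with Lect1 at 9.80% and Morc4 at 11.7% in KO late.

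To ask whether the host genotype altered the members, UMIs summed over the tumour cells of each library were compared between KO and WT hosts with stage as a block (edgeR quasi-likelihood test, Benjamini-Hochberg adjustment over 14331 genes). No gene passed an adjusted p of 0.05 (0% called), 935 genes (6.52%) had an unadjusted p under 0.05, and DESeq2 called 68. Csn3 was higher in KO hosts by 0.88 ± 0.20 on the log2 scale (SE, n = 3 libraries per genotype; edgeR adjusted p = 0.405) and Prph by 0.96 ± 0.24 (edgeR adjusted p = 0.481). Morc4 was lower, with a log2 difference of -1.03 ± 0.33 (edgeR adjusted p = 0.603). These 3 were the members with an unadjusted p under 0.05, and DESeq2 called Csn3 (adjusted p = 0.0311) and Prph (adjusted p = 0.0306) but not Morc4 (adjusted p = 0.0996).

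By stage, the log2 ratio of KO to WT for Csn3 was 0.97 at the early, 1.15 at the intermediate and 0.41 at the late stage. For Prph it was 0.22, 1.18 and 1.34, and for Morc4 it was -0.41, -0.70 and -2.12, with counting intervals that excluded 0 in all 9 cases. Over all genes tested, 10.5% were higher in KO at each of the 3 stages and 16.4% were lower at each, and 6.04% did not overlap in the way of Morc4. For the remaining members the log2 difference was 0.17 ± 0.18 (Rhox5), 0.09 ± 0.26 (Dppa2), 0.39 ± 0.42 (Etv2), 0.04 ± 0.20 (Lect1), 0.15 ± 0.41 (Car6) and -0.06 ± 0.29 (Gm14139). The median over the 9 members was 0.15 and over all genes 0.00.

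The difference of Morc4 rested in large part on the late pair, since without either late library its log2 difference was -0.50, and without either early library it was -1.36 or -1.37. Prph passed the threshold without KO early (log2 difference 1.30, edgeR adjusted p = 0.0475) but not without WT early (1.29, edgeR adjusted p = 0.0553). With stage as a block, the library left alone in its stage adds nothing to the contrast. Leaving out either library of a stage is thus nearly the same run. In the tumour cells the summed level of the 12 microglia markers was 1024 to 1730 CPM in WT and 1886 to 2810 in KO libraries, of which Sparc made up most, since the other 11 markers summed to 103 to 238 and 169 to 695 CPM. The 9 endothelial markers summed to 654 to 701 CPM in WT and 923 to 1044 in KO libraries, and the 7 markers of oligodendrocyte precursors to 446 to 470 and 203 to 412 CPM. Their part in the differences of Csn3, Prph and Morc4 was not tested.

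Late and early tumours were compared in the same sums, with genotype in the model and 2 libraries per stage. Here too no gene passed (0% called), 1061 genes (7.40%) had an unadjusted p under 0.05, and DESeq2 called 20. Csn3 was lower in late tumours, with a log2 difference of -1.0 ± 0.25 (edgeR adjusted p = 0.606), and so was Prph at -0.95 ± 0.30 (edgeR adjusted p = 0.606). Both were lower at the late stage within each genotype, Csn3 at 0.624 of the early level in WT and 0.422 in KO hosts, Prph at 0.370 and 0.808. Without WT early the log2 difference of Prph was -0.42, and without KO late that of Csn3 was -0.66. The log2 difference was 0.05 ± 0.22 for Rhox5, 0.13 ± 0.32 for Dppa2, 0.30 ± 0.50 for Etv2, -0.14 ± 0.24 for Lect1, 0.49 ± 0.40 for Morc4, 0.55 ± 0.50 for Car6 and -0.27 ± 0.35 for Gm14139. The 3 WT libraries of Morc4 rose with stage from 190 to 477 CPM, whereas in the KO libraries the late value (110) was the lowest.

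Members were also compared between tumour cells with a low and a high share of cell cycle UMIs. The tumour cells of each library were ranked by the share of their UMIs from 34 S phase and 49 G2 and M phase genes, none of them a member, and the lowest-ranked and highest-ranked of 3 equal parts were summed, giving 12 sums compared with library as a block. Of 12278 genes outside the lists, 3732 passed (30.4%, and 39.8% at an unadjusted p under 0.05), 1743 higher (14.2%) and 1989 lower (16.2%) in the high-cycle part. Of the 9 members 4 passed, 3 higher and 1 lower, and Csn3 and Car6 among them did not pass with cells thinned to 2000 UMIs. With 30.4% of all genes called, the count of members is not read as a result about them as a set. The median depth of the high-cycle part was the greater in 5 of 6 libraries. A setting with cells thinned to 2000 UMIs, without the shallower cells, is given beside the results.

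Lect1 was lower in the high-cycle part in 6 of 6 libraries. It was at 2462 CPM in the low-cycle and 1634 in the high-cycle part of WT early, 2904 and 1559 in KO early, 2905 and 2309 in WT intermediate, 3706 and 1794 in KO intermediate, 2264 and 1731 in WT late, and 2548 and 1387 in KO late. The log2 difference was -0.68 ± 0.08 (SE, 6 libraries; edgeR adjusted p = 3.92e-06).

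Morc4 moved the opposite way in 6 of 6 libraries. It was at 115 and 208 CPM in WT early, 109 and 162 in KO early, 190 and 338 in WT intermediate, 92.9 and 219 in KO intermediate, 422 and 521 in WT late, and 57.8 and 146 in KO late, low-cycle part first. The log2 difference was 0.81 ± 0.11 (edgeR adjusted p = 2.14e-05). After cells were thinned to 2000 UMIs, the log2 difference of both genes kept its direction and passed, Lect1 at -0.71 ± 0.09 and Morc4 at 0.63 ± 0.14. In WT early, however, thinned Morc4 was at 200 CPM in both parts.

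Csn3 (log2 difference 0.41 ± 0.12, edgeR adjusted p = 0.0161) and Car6 (0.43 ± 0.12, edgeR adjusted p = 0.01) were also called higher in the high-cycle part, in 5 of 6 and 4 of 6 libraries. At equal depth neither passed, with 0.24 ± 0.15 for Csn3 (edgeR adjusted p = 0.266) and 0.26 ± 0.10 for Car6 (edgeR adjusted p = 0.0677). Without either intermediate library Csn3 did not pass, at 0.35 without WT intermediate (edgeR adjusted p = 0.0722) and 0.27 without KO intermediate (edgeR adjusted p = 0.085). Rhox5 (0.12 ± 0.08), Prph (-0.13 ± 0.09), Dppa2 (0.00 ± 0.25), Etv2 (0.54 ± 0.27) and Gm14139 (-0.41 ± 0.28) did not pass. The median over the members was 0.12 and over all genes -0.03.

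Of the 14 marker lists, 6 had a higher summed level in the low-cycle than in the high-cycle part in all 6 libraries. These were the lists of tumour (5671 to 12669 against 4500 to 8848 CPM), microglia (1365 to 3507 against 845 to 2518 CPM), oligodendrocyte (1255 to 3324 against 742 to 1958 CPM), choroid plexus epithelial (180 to 2413 against 52.7 to 643 CPM), astrocyte (250 to 449 against 130 to 263 CPM) and ciliated ependymal markers (11.6 to 22.9 against 2.68 to 13.6 CPM). The microglia list without Sparc was higher in the high-cycle part in 4 of 6 libraries. Their part in the members' differences was not tested.

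**Figure D5:**
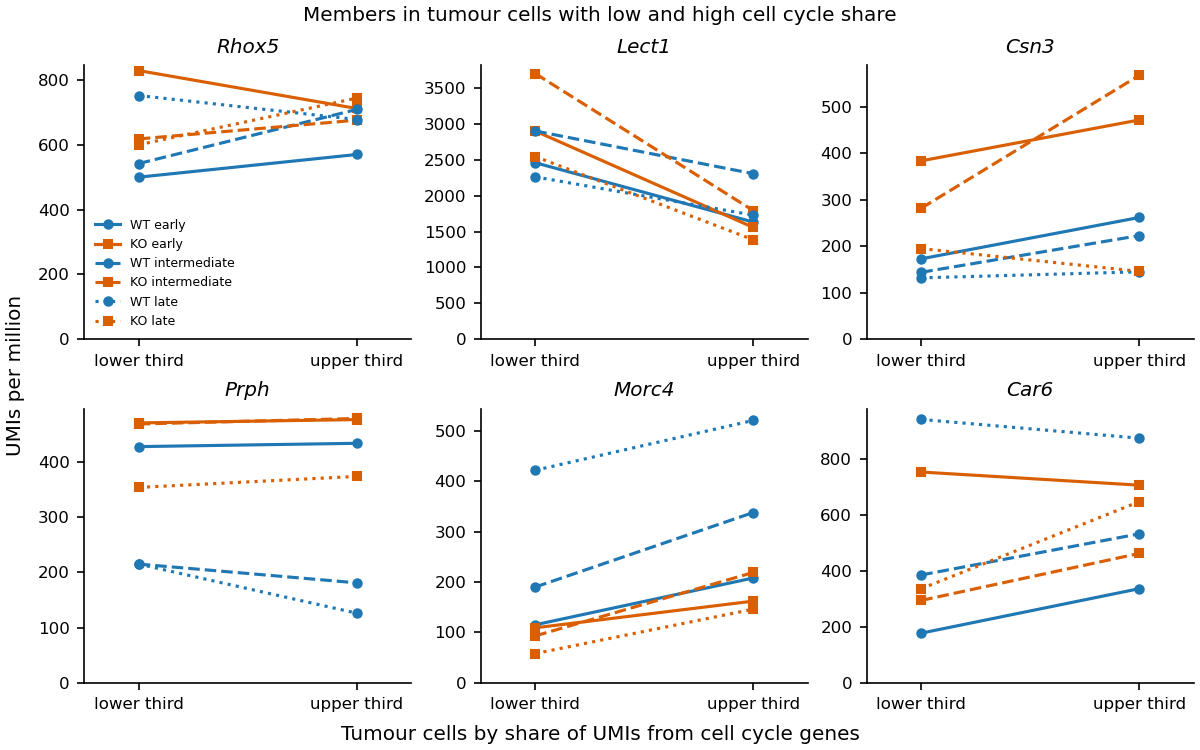
Level of the 6 abundant members (CPM, linear axis from 0) in the tumour cells with the lowest and highest share of UMIs from cell cycle genes, 1 line per library. All 6 Lect1 lines fall and all 6 Morc4 lines rise, while Prph falls in WT late (215 to 126 CPM) and WT intermediate (215 to 181 CPM) and rises slightly in the other 4 libraries.

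Leiden clustering divided the tumour cells more finely and is given as a description, without a cell cycle share per cluster. In clusters of 289 and 246 tumour cells, each drawn from all 6 libraries, Lect1 was at 4133 and 4223 CPM, above the 1407 to 2133 CPM of the 7 remaining clusters. In the same 2 clusters Morc4 was at 106 and 99.1 CPM and Car6 at 249 and 188 CPM. The 7 remaining clusters had 118 to 421 CPM of Morc4 and 422 to 767 CPM of Car6. Among those 7 no opposition was seen, since the clusters highest in Morc4 (421 and 375 CPM) had Lect1 at 1882 and 2133 CPM. A cluster of 315 of these cells, 67.0% from KO early, was left unnamed by the marker lists. Over thinned cells within a library, the correlation between members was weak, with medians over the 6 libraries from -0.15 (Lect1 with Csn3) to 0.10 over 15 pairs. These cells share a library and the clusters were built with the members among the genes.

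Relatives of the members were mostly under 50 CPM in the same tumour cells, a limit that Dppa2, Etv2 and Gm14139 did not reach either. Of the 8 other genes of a Rhox cluster list that were measured, 0 reached 50 CPM. Rhox2d was the highest at 42.9 CPM, against 1.37 in other cells. All 23 measured Rhox genes were looked at after these values were seen. Rhox2h (130 CPM against 4.63 in other cells) and Rhox2g (84.4 against 3.94) passed 50 CPM beside Rhox5. The Rhox2 copies are nearly identical, so the split of UMIs between them is uncertain. Of 11 measured pluripotency genes only Tex19.1, a protector of germ cells against transposons, reached 50 CPM (55.2 CPM against 1.54 in other cells), and Dppa4, the partner of Dppa2, was at 0.890 CPM. Of 23 measured germ cell genes 0 reached 50 CPM and 20 were under 5 CPM.

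The listed ETS and blood vessel progenitor genes other than Etv2 were low in tumour cells, where 0 of 16 reached 50 CPM. Among the ETS genes, Etv6 was at 42.5 CPM, Ets1 at 29.0, Etv1 at 16.9 and Etv4 at 16.2. Of 12 measured cartilage genes, a list without collagens, 2 reached 50 CPM. They were Sox6 (243 CPM), a chondrocyte transcription factor, and Hapln1 (82.4 CPM), a link protein of cartilage matrix, while Matn4 was at 20.3 and Sox9 at 1.23 CPM. Each was higher in a brain class. Sox6 (478 CPM) and Matn4 (363 CPM) were so in oligodendrocyte precursors, Hapln1 (165 CPM) in astrocytes and Sox9 (690 CPM) in ciliated ependymal cells. The cartilage collagens used as tumour markers were high in tumour cells, Col9a1 at 1618 CPM (50.6 in other cells) and Col11a1 at 1202 (59.7). Col2a1, looked at after these values were seen, was at 238 CPM in tumour cells and 8.58 in other cells. Of 4 measured milk protein genes 0 reached 50 CPM in tumour cells. The only one at 50 CPM in any class was Xdh, at 0.685 CPM in tumour cells and 116 in endothelial cells.

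The intermediate filament genes Vim (3026 CPM) and Nes (224 CPM) were high in tumour cells beside Prph, whereas Synm was at 10.1 and Gfap, the astrocyte filament gene, at 7.70 CPM. Of the Morc family, Morc2a was at 57.6 CPM and Morc3 at 28.3 CPM, the latter higher in other cells (104 CPM). No other carbonic anhydrase reached 50 CPM in tumour cells, with Car9 at 41.2, Car2 at 22.4, Car11 at 6.50 and Car12 at 4.35 CPM, and Car2, the cytosolic form of myelin-forming cells, was at 5840 CPM in oligodendrocytes. Of 14 genes of DNA methylation and silencing, 6 reached 50 CPM in tumour cells, led by the maintenance methyltransferase Dnmt1 (296 CPM), Trim28 (113 CPM), Hells (99.9 CPM) and Ehmt2 (82.4 CPM).

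The nearest measured gene on each side of the members was not raised with them as a rule. Of 18 neighbours, 3 reached 50 CPM in tumour cells, all of them broadly expressed, namely Cox6b1 beside Etv2 (653 CPM, 573 in other cells), Tuba1c beside Prph (309 CPM, 134 in other cells) and Sugt1 beside Lect1 (155 CPM, 142 in other cells). Another 10 were under 1 CPM. A tumour level at least 5-fold that of other cells was found for 2, Morc1 beside Dppa2 (13.2 against 0.515 CPM) and Troap beside Prph (28.1 against 3.60 CPM). Cldn2, which lies 10245 bases from Morc4, was at 0.0685 CPM in tumour cells and 199 CPM in choroid plexus epithelial cells.

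The genes whose level followed the mean of the 9 members most closely over 77 sums of a class and library, 6 of them tumour sums, were Rhox2g (Pearson r = 0.877), 2010005H15Rik (0.862), Tex19.1 (0.858), 4930550L24Rik (0.855) and G730013B05Rik (0.838), among 4161 genes at 50 CPM or more in tumour cells. These sums share libraries, and r mainly separates tumour from other sums, so no test is attached. Of those 4161 genes, 25 (0.601%) were at least 20-fold higher in tumour cells than in other cells, and the 6 abundant members, chosen on that difference, ranged from 22.9-fold (Prph) to 45.5-fold (Csn3).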

How the data were processed

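Drop-seq cDNA counts of 8 libraries were used. Per the labels and methods, the authors dissociated brains, removed myelin, aligned reads with STAR to GRCm38 (mm10) and deposited raw UMI counts per gene and barcode, without normalization. bcl2fastq 2.0 is named in the submitters' processing notes. Each table holds 3000 barcodes and 2885345 to 9950713 UMIs. The 1000 deepest barcodes per library with at least 1000 genes were kept, and genes in at least 30 cells were clustered (50 principal components, t-SNE, HDBSCAN with at least 19 cells a cluster, scikit-learn 1.9.0). The mixed myeloid cluster was divided by Leiden. Clusters were named by marker lists, which hold no member. Scrublet marked 1 to 11 cells a library as doublets, which were kept except in an alternative, where the cells with the highest doublet scores, up to 50 a library, were removed if almost none was marked. Levels in CPM are UMIs per 1000000, with exact 95% Poisson or binomial intervals, which cover counting error only. Tests used edgeR 4.0.16 (TMM, filterByExpr) on UMIs summed per library, with DESeq2 1.42.0 as an alternative, at an adjusted p of 0.05. On simulated counts, the KO against WT test recovered 79 of 100 genes changed 4-fold and 18 of 100 changed 2-fold, the late against early test 62 and 8, and the cell cycle test 97 and 79. In the same order of tests, 9, 7 and 10 unchanged genes were called. Unchanged genes were drawn from a single mean each, so block differences between stages or libraries were not simulated. The members and gene lists were chosen with earlier results of these data known. The named genes are the 9 members, up to 4 genes per family at 50 CPM or more in any class, nearest neighbours, and the 5 genes most correlated with the members. With 1 mouse per tumour-bearing library and 1 library per genotype and stage, p-values rest on the spread between these 6 libraries.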

Additional observations from a re-analysis of the deposited data

Results flagged for a closer look

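Between late and early tumours, 4 members moved in opposite directions in WT and KO hosts by more than counting error, with 1 library per host and stage. The log2 ratio of late to early in WT minus that in KO hosts was 2.29 for Car6 (1.81 in WT, -0.48 in KO), 1.71 for Morc4 (1.33 and -0.38), 0.50 for Lect1 (0.16 and -0.34) and 0.38 for Rhox5 (0.29 and -0.09). These differences between hosts were not tested, and the share of all genes that move in this way was not computed. The count of 4 is therefore not read as a result about the members. In 15 sets of 6 libraries examined for a single library far from the others, none was found.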

How the results depend on the processing

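The number of genes called between KO and WT hosts was 0 in the main setting, 68 with DESeq2, 2 with RLE size factors, 460 without the filter on low counts, 2 with at least 500 genes per cell, 1 with doublets removed, and 2 to 68 when 1 library was left out (68 without KO early, 61 without WT early). Between late and early tumours it was 0, then 20 with DESeq2, 362 without the filter, and 0 to 52 when 1 library was left out (52 without KO late). For the cell cycle it was 3732, then 2100 with DESeq2, 1495 with cells thinned to 2000 UMIs, a setting chosen after seeing the data, and 2786 to 3468 when 1 library was left out. Rhox5 passed for the cell cycle without the filter on low counts (0.16), where Csn3 (0.86), Prph (0.93) and Morc4 (-1.05) also passed between hosts, and Csn3 (-0.96) and Prph (-0.91) between stages. Car6 did not pass for the cell cycle with the cells divided into 2 equal parts (0.22). The cell cycle difference of Dppa2 changed sign with DESeq2 (0.02), without the filter (0.04), with at least 500 genes (0.09), with doublets removed (0.17) and with 2 equal parts (0.06), and that of Gm14139 with 2 equal parts (0.01). When 1 library was left out, differences changed sign between hosts for Etv2 (-0.05 to 0.90), Lect1 (-0.11 to 0.17), Car6 (-0.49 to 0.67) and Gm14139 (-0.25 to 0.21), between stages for Rhox5 (-0.17 to 0.26), Dppa2 (-0.07 to 0.31), Etv2 (-0.31 to 1.15), Lect1 (-0.36 to 0.07), Morc4 (-0.39 to 1.23), Car6 (-0.38 to 1.61) and Gm14139 (-0.66 to 0.15), and for the cell cycle for Dppa2 (-0.12 to 0.17). The cause was not tested. The summed level of the members in tumour cells (4064 CPM) moved by less than the spread between libraries in every alternative run for it, as did the level of each member. The tumour cells formed 1 cluster, so the largest cluster alone gave nothing to compare. No paired analysis by replicate number was possible because each group holds 1 library. Libraries were paired by stage between hosts, where 0 genes were called also without the stage block, and the parts of the cell cycle by library. The levels of Dppa2, Etv2 and Gm14139 rest on 15 to 72 UMIs per library.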
